A study of Rattus norvegicus with 36 samples.

Results

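rno-miR-191a-5p and rno-miR-425-5p, below miR-191a-5p and miR-425-5p, are 2 mature rat miRNAs cut from neighbouring hairpins, and both of them were found among the 947 miRNAs of the count table. They were taken by name: miR-191a-5p because the study used it as the reference of its RT-qPCR, and miR-425-5p because its hairpin stands next to that of miR-191a. The libraries hold small RNA of whole blood or of lung, taken from female rats of the WAG/RijCmcr strain that were 9 to 10 weeks old at irradiation. The whole thorax of the irradiated rats received X-rays at 15 Gy, and these groups were sampled after 1, 2, 3 or 4 weeks, while control groups (0 Gy) were sampled at 1 or 4 weeks. Each group had 3 libraries in each tissue, which makes 18 libraries of blood and 18 of lung. By the study's methods each library is a pool of RNA from 3 rats, whereas the sample labels give 3 rats per group, and n below counts libraries. Blood was drawn from the heart, so it holds all blood cells and plasma, and the lung libraries hold the RNA of blood left in the tissue.

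A miRNA is a short RNA that guides an Argonaute protein to messenger RNAs, chiefly through its seed, bases 2 to 8 from the 5′ end. Hairpins that lie close together on 1 strand are often cut from 1 primary transcript, and their mature products can still differ in level through cutting, loading and decay. In human, miR-191 and miR-425 lie in an intron of DALRD3, a gene whose product takes part in methylation of transfer RNA. miR-191 is widely used as a reference in RT-qPCR of miRNAs, where the signal of a target is read relative to a miRNA that is taken to be steady.

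The mature sequences are printed because the pair shares a locus and not a seed. They come from RefSeq on the rat build GRCr8, written 5′ to 3′ with the seed in capitals.
miR-191a-5p: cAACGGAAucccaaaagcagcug
miR-191a-3p: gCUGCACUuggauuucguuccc
miR-425-5p: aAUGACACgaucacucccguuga
miR-425-3p: aUCGGGAAuaucguguccgcc
miR-191b: gAACGAAAuccaagugcagcu
On GRCr8, miR-191a-5p stands at chr8:118142641-118142663 and miR-425-5p at chr8:118143094-118143116, both on the plus strand. The hairpins are 91 and 83 bases long with 366 bases between them, and in the RefSeq gene table the span of Dalrd3 holds both. Whether they stand in an intron or an exon of the rat gene was not looked up here. The hairpins are shown to place the 5p product, in capitals, in each.
Mir191: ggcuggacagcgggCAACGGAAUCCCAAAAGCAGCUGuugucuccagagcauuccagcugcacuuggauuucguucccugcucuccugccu
Mir425: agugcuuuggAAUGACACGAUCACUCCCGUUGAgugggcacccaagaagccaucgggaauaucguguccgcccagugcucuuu
The 5p product spans bases 15 to 37 of Mir191 and 11 to 33 of Mir425. No other of the 693 mature miRNA names in the RefSeq sequence table has the seed of miR-191a-5p or that of miR-425-5p, while miR-191a-3p shares its seed with miR-17-2-3p. miR-191b is listed at chr8:118142682-118142702 on the minus strand, opposite miR-191a-3p over 20 bases. Counted from the 5′ end of miR-191a-5p, the seed of miR-191b differs from that of miR-191a-5p by G6A.

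Blood libraries held 1156407 to 2340177 counts and lung libraries 8132 to 3807051. The red cell miRNA miR-486-5p took between 83.3% and 95.9% of the counts of a blood library. The red cell list (4 miRNAs) held 84.9% to 94.4% of the counts in 15 Gy blood and 89.3% to 96.0% in 0 Gy blood, and the lung list (9 miRNAs) held 7.67% to 20.96% of the counts of the lung libraries and at most 0.238% in blood, so that each tissue carried the miRNAs of its label. In lung, 15 Gy 3 week replicate 3 had 8132 counts, with 48.1% of them miR-486-5p, and 0 Gy 1 week replicate 3 had 11621 counts. Lung results are therefore given for all 18 libraries and for the 16 of ordinary depth. In blood, 15 Gy 1 week replicate 2 and 0 Gy 1 week replicate 1 stand under each other's library number in the study's supplementary table. Groups were taken from the deposited labels, and results of miR-191a-5p in blood that move without this pair of libraries are given with that value.

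miR-191a-5p was abundant in both tissues and miR-425-5p was not. The table sets 458 known rat miRNAs apart from 116 homologs, and it lists miR-486-5p among the homologs, so ranks are given over the 574 of both classes. By mean count rno-miR-191a-5p ranked 2 in 15 Gy blood with 1.14% of all counts and 3 in 0 Gy blood with 0.971%. In lung it ranked 16 after 15 Gy with 0.907% and 17 at 0 Gy with 0.754%. rno-miR-425-5p ranked 59 in 15 Gy blood and 65 in 0 Gy blood, and 130 in 15 Gy lung and 119 in 0 Gy lung. In the blood libraries there were 56.6 to 340 counts of miR-191a-5p for each count of miR-425-5p (median 124, n = 18), and in the 16 lung libraries of ordinary depth 76.1 to 278 (median 111). This is a ratio of read counts, since ligation and PCR do not take every miRNA equally, and it is not a ratio of molecules.

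Levels are given as CPM after TMM scaling, that is, counts per 1e6 counts of a library after edgeR has set the libraries to a common scale from the bulk of miRNAs. In 15 Gy blood at 1 week miR-191a-5p stood at 5784, 17093 and 18124 CPM, against 7245, 10045 and 8450 CPM in 0 Gy blood at 1 week. A single library was low and the other 2 were above all controls. At 2 weeks it stood at 7253, 8867 and 8446 CPM in 15 Gy blood, within the range of the same 0 Gy libraries. By share of all counts it did not overlap with them at 2 weeks, at 1.30% to 1.48% in 15 Gy blood against 0.428% to 0.748% in 0 Gy blood, and 59.2% of the 289 miRNAs were higher without overlap on that scale. At 3 weeks it stood at 7499, 6954 and 12937 CPM in 15 Gy blood, against 15854, 14060 and 11501 CPM in 0 Gy blood at 4 weeks. At 4 weeks the 15 Gy libraries had 10536, 5808 and 27245 CPM, the last being the highest level of all 18 blood libraries, against the same 0 Gy libraries of 4 weeks. With TMM scaling the groups overlapped in each of these 4 comparisons. miR-191a-5p was higher in every 0 Gy library at 4 weeks than in any at 1 week, as 5.19% of the 289 miRNAs tested in blood were. With the libraries in doubt exchanged this no longer holds, since the library at 17093 CPM would then be a control of 1 week.

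With TMM scaling, though not with library totals, miR-425-5p varied less in blood. It stood at 102, 96.8 and 53.2 CPM in 15 Gy blood at 1 week and at 68.6, 71.2 and 80.4 CPM at 2 weeks, against 90.4, 94.0 and 58.4 CPM in 0 Gy blood at 1 week. At 3 weeks it stood at 84.1, 74.6 and 77.0 CPM and at 4 weeks at 85.9, 75.7 and 81.7 CPM in 15 Gy blood, against 63.7, 99.9 and 89.2 CPM in 0 Gy blood at 4 weeks. All groups overlapped. Behind these levels are 51 to 320 counts of miR-425-5p per blood library and 7380 to 28280 of miR-191a-5p, so counting error is larger for miR-425-5p.

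In lung, miR-191a-5p was mostly higher after 15 Gy. At 1 week it stood at 13189, 13232 and 5329 CPM and at 2 weeks at 7230, 8147 and 14386 CPM in 15 Gy lung, against 7462, 7416 and 4299 CPM in 0 Gy lung at 1 week, where 4299 CPM rests on 80 counts. At 3 weeks it stood at 9260, 8874 and 12705 CPM, the last from 91 counts, and at 4 weeks at 9223, 12108 and 13691 CPM in 15 Gy lung, against 7731, 8067 and 4987 CPM in 0 Gy lung at 4 weeks. The groups overlapped at 1 and 2 weeks and did not overlap at 3 and 4 weeks. Of all 499 miRNAs tested in lung, 2.4% were higher in the same way at 3 weeks and 4.81% at 4 weeks. By share of all counts the groups at 4 weeks overlapped, with 0.824% in 15 Gy replicate 1 and 0.879% in 0 Gy replicate 2. Over all weeks, 10 of the 12 libraries at 15 Gy stood above the highest of the 6 at 0 Gy. With CPM of library totals 8 of the 12 did, and among libraries of ordinary depth with TMM 9 of 11 did against 5 libraries at 0 Gy.

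miR-425-5p in lung stood at 75.2, 66.2 and 39.6 CPM at 1 week and at 78.5, 73.9 and 51.8 CPM at 2 weeks after 15 Gy, against 89.2, 85.5 and 53.7 CPM in 0 Gy lung at 1 week. At 3 weeks it stood at 92.3 and 88.1 CPM in the 2 deep libraries and had 0 counts in the shallow one, and at 4 weeks at 82.7, 69.0 and 99.1 CPM after 15 Gy, against 102, 77.0 and 30.8 CPM in 0 Gy lung at 4 weeks. The groups overlapped in every week. The 0 of 8132 counts allows a share of up to 0.0369%, which is above the share of miR-425-5p in every other library, and the 53.7 CPM of 0 Gy 1 week replicate 3 is 1 count. Such limits cover counting error only, since PCR reads without molecular identifiers are not independent molecules.

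**Figure D1:**
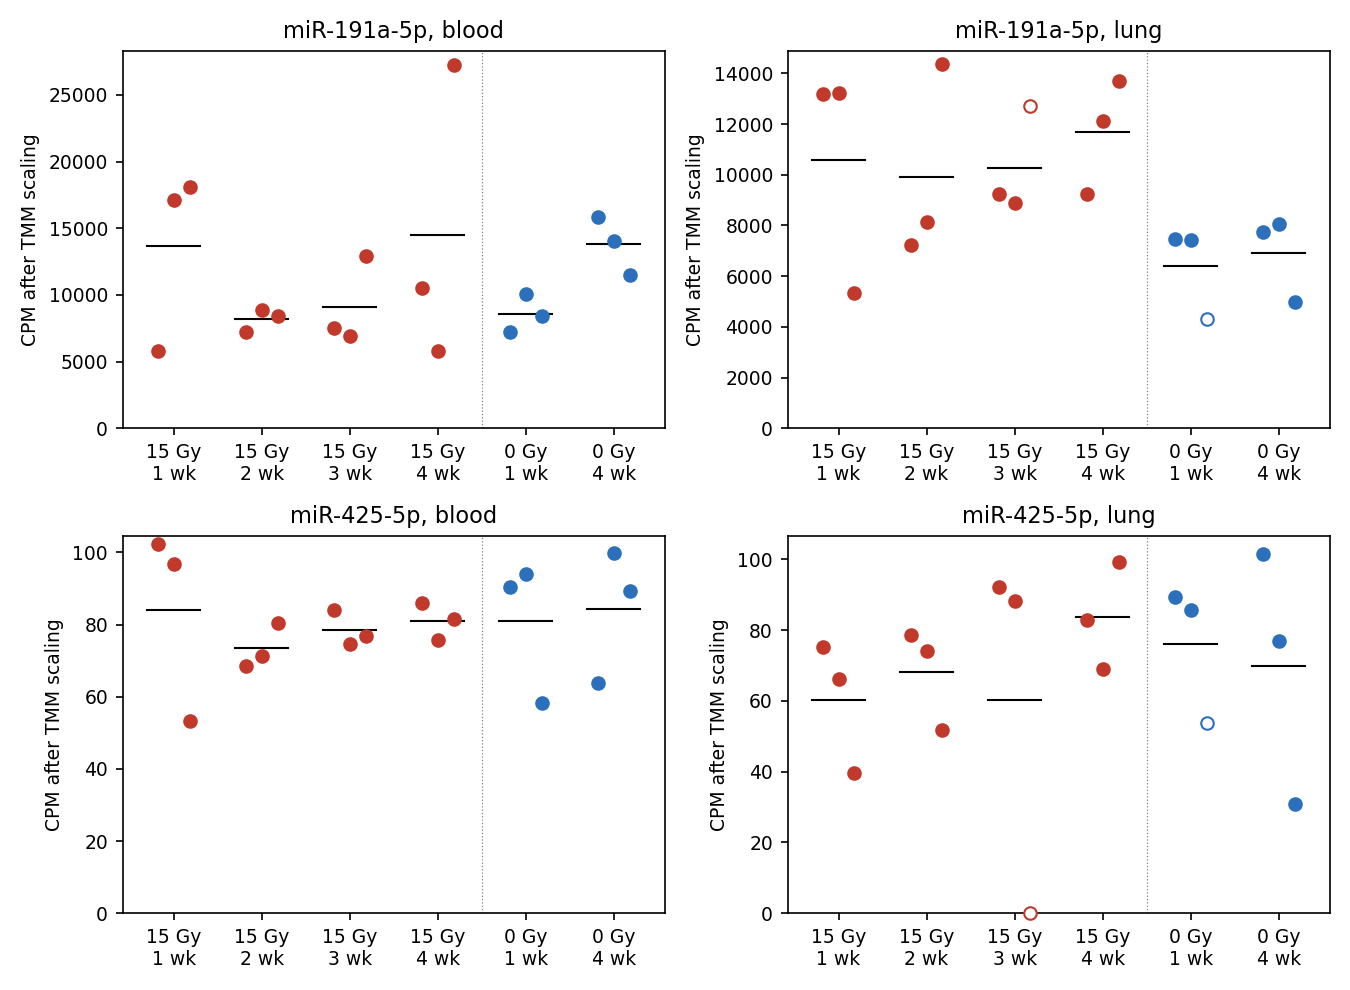
Level of miR-191a-5p (upper panels) and miR-425-5p (lower panels) in each blood and lung library, in CPM after TMM scaling, for 15 Gy groups (red) and 0 Gy groups (blue) of 3 libraries. Lines are group means and open circles are the 2 lung libraries of very low depth. miR-191a-5p reached from 5784 to 27245 CPM in blood, miR-425-5p only from 53.2 to 102 CPM.

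Whether either miRNA differed anywhere among the 6 groups was asked with edgeR's quasi-likelihood F test. Adjusted p-values take in every miRNA tested in the tissue, by the method of Benjamini and Hochberg. Neither passed the threshold of 0.05 in either tissue. In blood, where 0.346% of 289 miRNAs passed and 7.96% had an unadjusted p under 0.05, miR-191a-5p had F = 1.196 (edgeR, adjusted p = 0.659) and miR-425-5p had F = 0.131 (edgeR, adjusted p = 0.995). In lung 0% of 499 miRNAs passed with edgeR, 7.82% had an unadjusted p under 0.05 and 0.601% passed with DESeq2. There miR-191a-5p had F = 1.53 (edgeR, adjusted p = 0.694) and miR-425-5p had F = 0.296 (edgeR, adjusted p = 1.00). DESeq2 gave adjusted p of 0.720 for miR-191a-5p and 0.997 for miR-425-5p in blood, and 1.00 for both in lung. A p above the threshold does not show that a level was the same in all groups, and the intervals below say how large a difference the libraries leave room for.

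In blood, over all weeks, 15 Gy against 0 Gy gave a log2 fold change of 0.02 for miR-191a-5p (SE 0.30, 95% interval −0.63 to 0.67, edgeR adjusted p = 1.00) and of −0.06 for miR-425-5p (SE 0.18, −0.44 to 0.32, adjusted p = 0.901), where 1.04% of all miRNAs passed. The sign for miR-191a-5p was not fixed, since the value was −0.23 without the 2 libraries in doubt. Week by week, miR-191a-5p gave 0.67 (−0.40 to 1.74) at 1 week, −0.07 (−1.13 to 1.00) at 2 weeks, −0.60 (−1.67 to 0.47) at 3 weeks and 0.07 (−0.99 to 1.14) at 4 weeks. Without the libraries in doubt the values were 0.097 at 1 week and −0.31 at 2 weeks, and with them exchanged −0.19 and −0.53. The value at 4 weeks was −0.81 without replicate 3 of that group, which had the highest level of all. The intervals for miR-191a-5p at single weeks thus reach past a doubling or a halving. miR-425-5p lay between −0.14 (−0.76 to 0.48) at 2 weeks and 0.06 (−0.56 to 0.67) at 1 week. Weeks 1 and 2 share the 0 Gy libraries of 1 week, and weeks 3 and 4 share those of 4 weeks.

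The 0 Gy groups were set against each other in the same way. In 0 Gy blood at 4 weeks against 0 Gy blood at 1 week, the log2 fold change was 0.69 (SE 0.50, −0.38 to 1.76, edgeR adjusted p = 0.975) for miR-191a-5p and 0.06 (SE 0.29, −0.56 to 0.68, adjusted p = 1.00) for miR-425-5p. For miR-191a-5p the value was 0.47 without the 2 libraries in doubt and 0.22 with them exchanged. In lung the same comparison gave 0.11 (−0.74 to 0.96) and −0.21 (−1.23 to 0.81).

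In lung, over all weeks, 15 Gy against 0 Gy gave 0.67 for miR-191a-5p (SE 0.25, 95% interval 0.13 to 1.205, unadjusted p = 0.0178 with edgeR), which did not pass after adjustment (adjusted p = 0.391). In that comparison 9.22% of all miRNAs had an unadjusted p under 0.05, 0% passed after adjustment and 1.2% passed with DESeq2. The week values for miR-191a-5p were 0.73 (−0.13 to 1.58), 0.63 (−0.22 to 1.48), 0.57 (−0.29 to 1.42) and 0.75 (−0.10 to 1.61) at 1, 2, 3 and 4 weeks, where 0% of all miRNAs passed at 1, 2 and 3 weeks and 0.2% at 4 weeks. All were above 0, with each pair of weeks sharing its controls. miR-425-5p gave −0.06 over all weeks (SE 0.29, −0.68 to 0.57, adjusted p = 1.00), with −0.43 (−1.46 to 0.60), −0.24 (−1.27 to 0.79), 0.20 (−0.84 to 1.23) and 0.25 (−0.74 to 1.23) by week.

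The lung value of miR-191a-5p over all weeks was smaller without the shallow libraries. The 3 highest levels of all lung libraries, 14386, 13691 and 13232 CPM, were in 15 Gy libraries of 239592, 258078 and 372932 counts, the shallowest of the 16 of ordinary depth. The next level, 13189 CPM, was in 15 Gy 1 week replicate 1, which had 1491401 counts. The lowest level, 4299 CPM, was in the 0 Gy library of 11621 counts. The median total was 965294 counts in the 15 Gy libraries and 1603046 in the 0 Gy libraries. Among the 16 libraries the log2 fold change over all weeks was 0.48 (SE 0.22, −0.0015 to 0.96, edgeR adjusted p = 0.544), with 0.79 (SE 0.32, edgeR adjusted p = 0.413) at 4 weeks. Without the 5 libraries under 500000 counts, a limit set after the data were seen, the value over all weeks was 0.29 (edgeR adjusted p = 0.875). The 5 include those with the 3 highest levels, at 15 Gy, and that with the lowest, at 0 Gy. Leaving these out lowers the value by itself. The lung list of miRNAs took 7.67% to 15.98% of counts in 15 Gy lung (median 12.0%) and 12.2% to 20.96% in 0 Gy lung (median 14.4%). At ordinary depth its medians were 12.3% and 13.3%. The red cell list took 1.06% to 48.2% of counts in 15 Gy lung (median 2.42%) and 0.705% to 5.80% in 0 Gy lung (median 1.72%). At ordinary depth it took at most 5.66% after 15 Gy (median 2.17%) and 4.24% at 0 Gy (median 1.06%). The list of 2 miRNAs set up for platelets is miR-126a-3p and miR-223-3p, and the first is also in the lung list. It took 0.194% to 0.724% in 15 Gy lung (median 0.410%) and 0.107% to 1.09% in 0 Gy lung (median 0.745%). At ordinary depth these medians were 0.434% and 0.965%. In blood the list took at most 0.00293%, so in lung it cannot be read as a measure of platelets. The part of depth and of these shares in the result was not tested. Fewer cells of a type cannot be told apart from less RNA per cell in such samples.

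**Figure D2:**
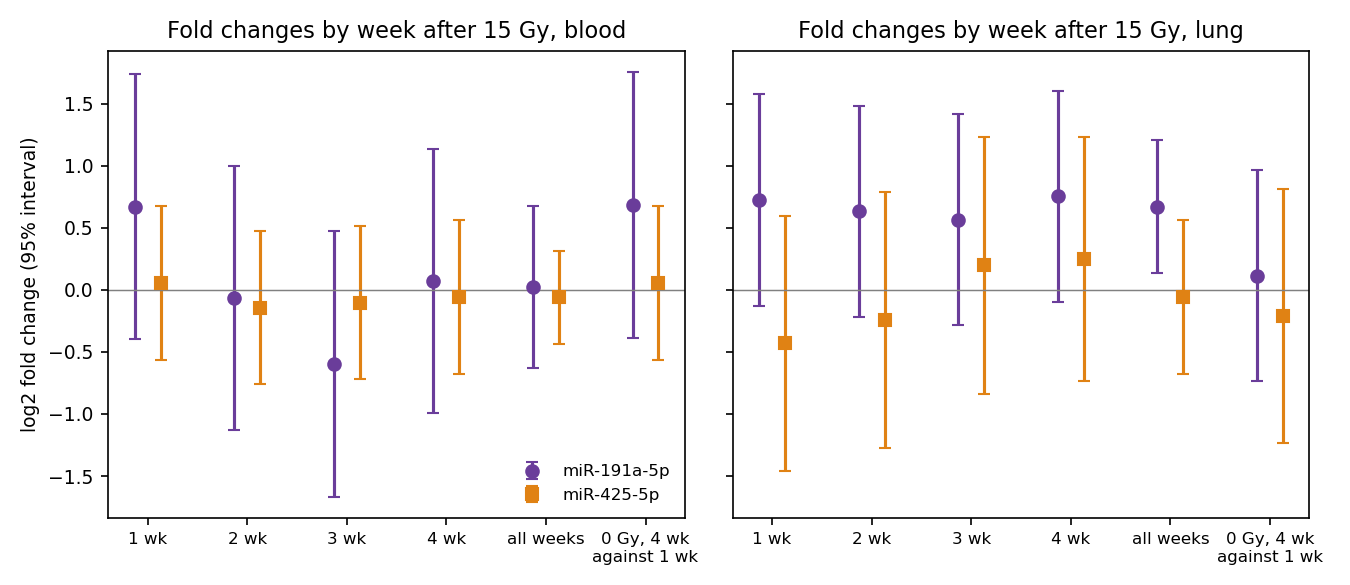
Log2 fold changes of miR-191a-5p (circles) and miR-425-5p (squares) with 95% intervals from edgeR, at each week after 15 Gy against its 0 Gy control, over all weeks, and between the 0 Gy groups. Every interval crosses 0 except that of miR-191a-5p in lung over all weeks, 0.13 to 1.205, whose adjusted p was 0.391.

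The effect of 15 Gy in blood minus that in lung was tested in a joint fit of the 36 libraries. For miR-191a-5p it was −0.43 (SE 0.34, 95% interval −1.13 to 0.27, edgeR adjusted p = 0.763) and for miR-425-5p it was 0.22 (SE 0.38, −0.55 to 0.99, adjusted p = 1.00), so no difference between the tissues was detectable. In this fit 0.174% of 576 miRNAs passed.

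Besides differences between groups, given above, a reference miRNA can be judged by its spread over all samples, whatever their group. Over the 18 blood libraries the SD of log2(CPM + 1) after TMM scaling was 0.62 for miR-191a-5p and 0.26 for miR-425-5p. miR-425-5p ranked 10 of the 289 miRNAs tested by smallest SD, and miR-191a-5p ranked 129. Among the 60 known rat miRNAs with a mean above 100 counts they ranked 6 and 40, where the median SD was 0.50. Within groups the pooled SD was 0.65 for miR-191a-5p and 0.30 for miR-425-5p, against SDs of the group means of 0.32 and 0.06. With library totals this turned for miR-191a-5p, with 0.37 within groups and 0.46 for the group means.

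The order of the pair turned round with the scale. With CPM of library totals, miR-191a-5p had an SD of 0.54 and ranked 6 of 60, and miR-425-5p had 0.70 and ranked 26 of 60. Raw counts gave SDs of 0.54 and 0.69, ranks 6 and 24 of 60. The study states that it took miR-191-5p as the reference because its read counts were consistent between libraries. miR-191a-5p was 0.428% to 1.496% of all counts of a blood library, and 6.23% to 26.0% of those other than miR-486-5p. The TMM factors of the blood libraries ran from 0.506 to 2.25. In 15 Gy 4 week replicate 3, which had the highest TMM level of miR-191a-5p, the TMM factor was 0.549 and miR-486-5p took 94.2% of counts. There miR-191a-5p held 1.496% of counts, close to the 1.35% and 1.31% of the other libraries of its group.

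**Figure D3:**
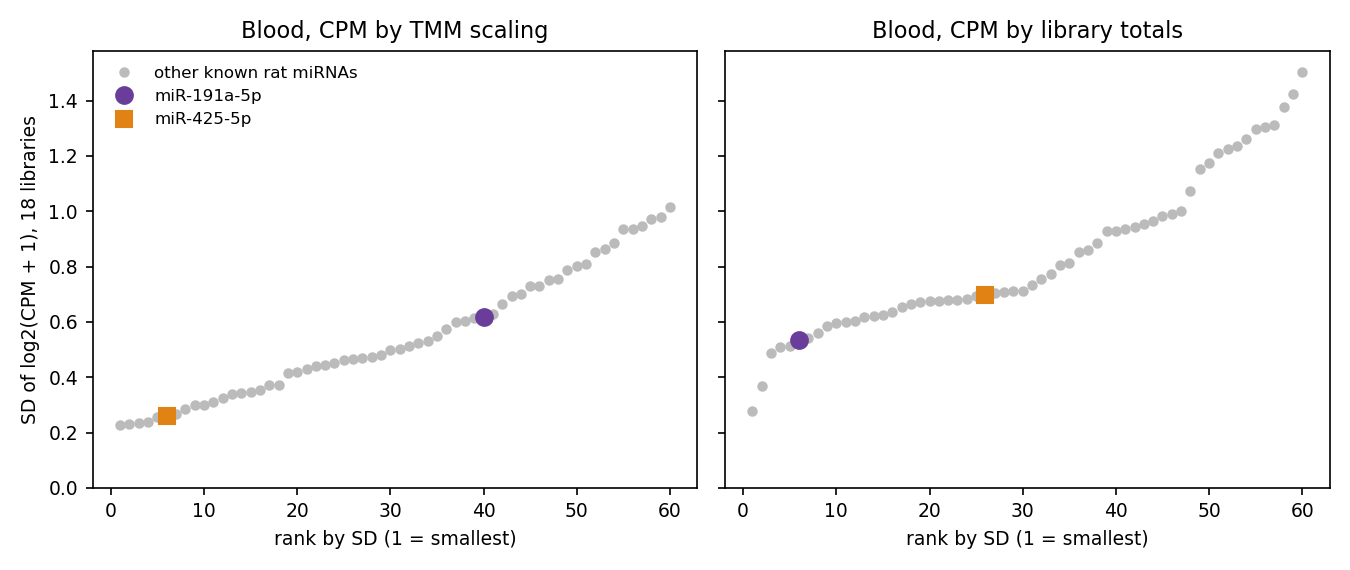
SD of log2(CPM + 1) over the 18 blood libraries for the 60 known rat miRNAs with a mean above 100 counts, ranked from the smallest, with TMM scaling (left) and library totals (right). miR-425-5p (square) ranks 6 and miR-191a-5p (circle) 40 with TMM, and they rank 26 and 6 with library totals.

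In the 16 lung libraries of ordinary depth the SDs with TMM were 0.42 for miR-191a-5p and 0.46 for miR-425-5p, ranks 59 and 98 of the 499 miRNAs tested in lung. Among the 53 known rat miRNAs there with a mean above 1000 counts, miR-191a-5p ranked 11 with TMM, 22 with RLE scaling and 32 with library totals. Over all 18 lung libraries the SDs were 0.52 and 1.52, where the library with 0 counts sets the value of miR-425-5p. With TMM, the SDs of the pair thus lay closer together in the 16 lung libraries than in blood.

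A list of 14 miRNAs in common use as references in blood or tissue was set beside the pair. In blood, among these 14 and the pair, miR-425-5p had the smallest SD with TMM and miR-191a-5p ranked 12 of 16. miR-93-5p (0.30), miR-25-3p (0.31) and miR-103-3p (0.34) came next after miR-425-5p, the first 2 of them from the miR-106b-25 cluster, and miR-423-3p had the largest SD with 0.94. In lung, over all 18 libraries, miR-26a-5p had the smallest SD with 0.44, miR-191a-5p ranked 7 and miR-425-5p, with its library at 0 counts, ranked 14. In the 16 lung libraries miR-93-5p had the smallest SD with 0.26, miR-191a-5p ranked 6 and miR-425-5p ranked 8. With edgeR none of the 14 passed after adjustment in any of the 7 tests of a tissue, and at an unadjusted p under 0.05 there were 1 to 4 of the 14 by test in blood and 0 to 3 in lung. Of all miRNAs, 4.15% to 15.9% had such a p by test in blood and 5.01% to 10.4% in lung. In the test of any difference among the groups, 3 of the 14 had an unadjusted p under 0.05 in blood, namely miR-423-3p, miR-423-5p and miR-484, where 7.96% of all miRNAs did, and 1 in lung, miR-423-5p. DESeq2 passed these 3 in that test in blood, with 3.46% of all miRNAs. It also passed miR-103-3p, miR-423-3p and miR-484 for 15 Gy against 0 Gy over all weeks in blood, with 4.5% of all miRNAs, and miR-423-5p in lung at 1 week, with 1.2%. It passed neither miR-191a-5p nor miR-425-5p in any test.

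The ratio of miR-425-5p to miR-191a-5p within a library needs no scaling, and it is given as log2 of the counts with 0.5 added to each. In blood it averaged −7.00 ± 0.79 after 15 Gy and −7.05 ± 0.54 at 0 Gy (SD, n = 12 and n = 6). The difference of 0.05 had p = 0.890 in a two-sided exact permutation test, and the value ran from −8.40 to −5.82 in 15 Gy libraries and from −7.95 to −6.32 in 0 Gy libraries. In lung it averaged −7.13 ± 0.48 after 15 Gy and −6.47 ± 0.52 at 0 Gy (SD, n = 12 and n = 6), a difference of −0.66 with p = 0.0165 in the exact permutation test, or 0.0495 after adjustment over the 3 comparisons of the ratio. The ranges, −8.05 to −6.52 after 15 Gy and −7.31 to −5.75 at 0 Gy, overlapped.

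This difference in lung did not pass once shallow libraries were left out. Among the 16 of ordinary depth it was −0.48 (exact permutation p = 0.0772). Without 0 Gy 1 week replicate 3 alone, whose ratio is made of 1 and 80 counts, it was −0.52 (exact permutation p = 0.0541). Without the 5 libraries under 500000 counts it was −0.30 (exact permutation p = 0.195). At 1 and 2 weeks the ratio was lower in each 15 Gy library than in any 0 Gy library of 1 week. The means differed by −1.19 and −0.93, and the exact permutation p was 0.1, the smallest that 3 against 3 libraries can give. These control means include 0 Gy 1 week replicate 3 at −5.75, where the other controls stood at −6.38 and −6.43. How many other lung miRNAs separate in this way relative to miR-191a-5p was not counted. At 3 and 4 weeks the differences were −0.18 and −0.35, and the groups overlapped. Without irradiation, 0 Gy at 4 weeks minus 0 Gy at 1 week, the ratio differed by −0.57 in lung and by −0.62 in blood (exact permutation p = 0.3 for each).

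**Figure D4:**
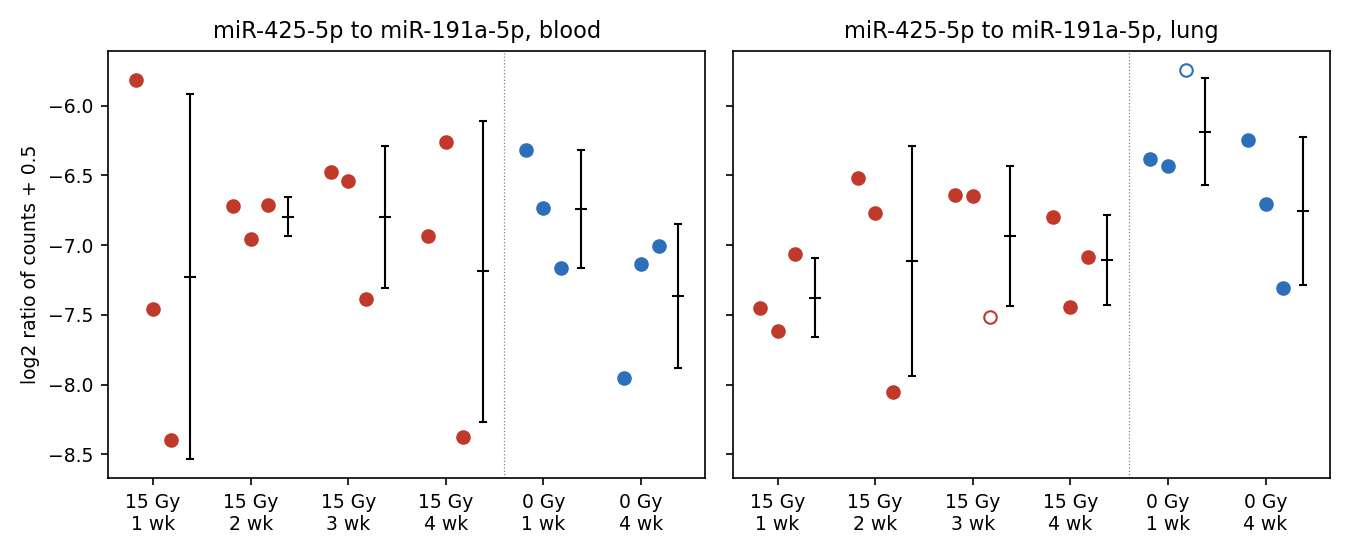
Log2 ratio of miR-425-5p to miR-191a-5p counts (0.5 added to each) in each library of blood and lung, for 15 Gy groups (red) and 0 Gy groups (blue), with the mean and SD of the 3 libraries beside them. Open circles are lung libraries of very low depth. In lung the 15 Gy libraries lie from −8.05 to −6.52 and the 0 Gy libraries from −7.31 to −5.75.

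Between tissues at 0 Gy, the ratio was −6.47 ± 0.52 in lung and −7.05 ± 0.54 in blood (SD, n = 6 each). The difference of 0.58 had an exact permutation p of 0.0866 (0.130 after adjustment over the 3 comparisons). With the 5 lung libraries of ordinary depth it was 0.44 (exact permutation p = 0.173). When each library was left out in turn, 2 runs had an exact permutation p under 0.05 and all the others did not. The difference was 0.75 (exact permutation p = 0.0238) without lung 0 Gy 4 week replicate 3. Without blood 0 Gy 1 week replicate 1 it was 0.73 (exact permutation p = 0.0346).

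No relation between the levels of miR-425-5p and miR-191a-5p was detected from library to library. Over the 18 blood libraries the levels had Pearson r = −0.11 (permutation p = 0.662) and Spearman rho = −0.06 (permutation p = 0.806), and r = 0.10 (permutation p = 0.723) without the 2 libraries farthest from the median of miR-191a-5p. Among 140 known rat miRNAs past the filter in blood, miR-425-5p ranked 84 by its r with miR-191a-5p. In the 16 lung libraries of ordinary depth r was 0.31 (permutation p = 0.250) and rho 0.11 (permutation p = 0.688), and without the 2 farthest libraries r was 0.37 (permutation p = 0.196). Over all 18 lung libraries r was −0.12 (permutation p = 0.624). After group means were subtracted, r was −0.23 in blood (permutation p = 0.353) and 0.33 in the 16 lung libraries (permutation p = 0.207). The smallest adjusted p over the 6 relations was 0.706. With CPM of library totals r in blood was 0.39 (permutation p = 0.104), a scale on which every miRNA but miR-486-5p shares what that miRNA leaves.

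**Figure D5:**
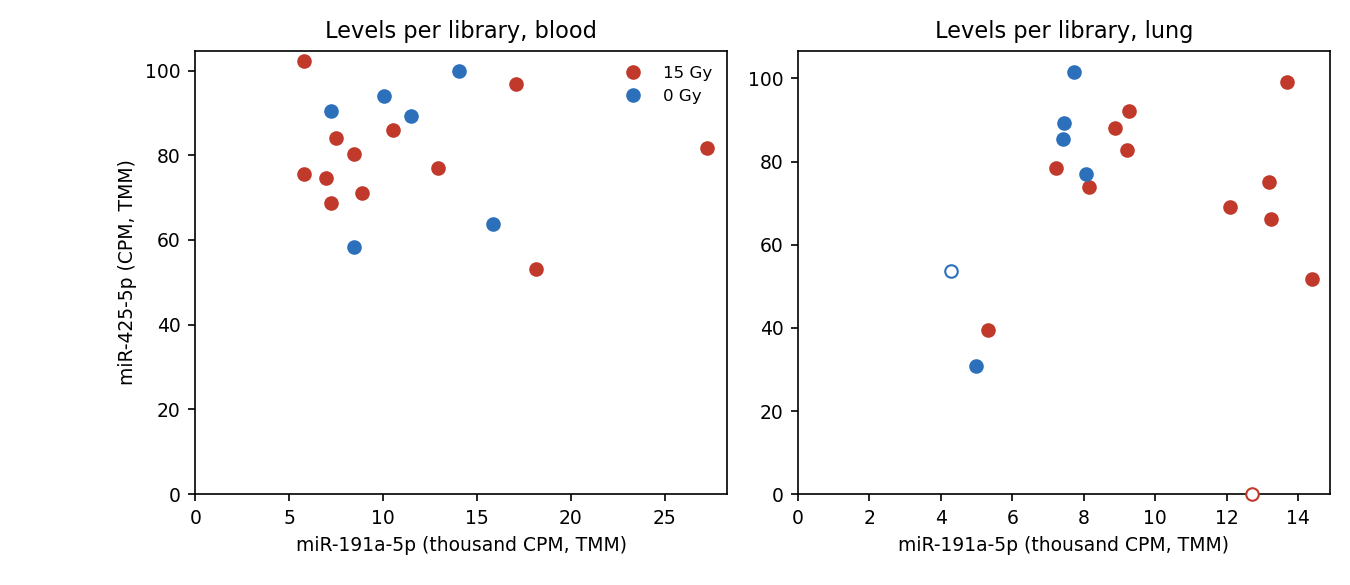
Level of miR-425-5p against that of miR-191a-5p in each blood and lung library, in CPM after TMM scaling (miR-191a-5p in units of 1000 CPM), for 15 Gy (red) and 0 Gy (blue). Open circles are lung libraries of very low depth. Pearson r was −0.11 over the 18 blood libraries and −0.12 over the 18 lung libraries.

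The known rat miRNAs whose level was most like that of miR-191a-5p in blood were miR-183-5p (r = 0.80), miR-10a-5p (r = 0.77) and miR-3553 (r = 0.75) over 18 libraries. In the 16 lung libraries they were miR-3553 (r = 0.76), miR-183-5p (r = 0.75) and miR-125b-1-3p (r = 0.70). Over all 18 lung libraries they were miR-183-5p (r = 0.69), miR-23a-3p (r = 0.66) and miR-24-3p (r = 0.64), so that only miR-183-5p was among the 3 nearest in each set. For miR-425-5p they were miR-339-3p (r = 0.78), let-7c-5p (r = 0.63) and miR-30c-5p (r = 0.63) in blood, and miR-26b-5p (r = 0.76), miR-16-5p (r = 0.75) and miR-374-5p (r = 0.74) in lung. The 3 nearest of miR-425-5p were different miRNAs in blood and lung. These r are a description over libraries that share the scaling, picked as the largest of 140 miRNAs in blood and 241 in lung.

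The other arms of both hairpins were scarce. Over all lung libraries miR-191a-3p had 165 counts, 0.0873% of the counts of its hairpin (95% Wilson interval 0.0750% to 0.102%), and in blood 118 counts, 0.0319% (0.0267% to 0.0382%). miR-425-3p had 78 counts in lung, 4.20% (3.38% to 5.21%), and 37 in blood, 1.24% (0.899% to 1.70%). These shares pool the reads of all libraries of a tissue, and their intervals cover counting error only. By library miR-191a-3p ran from 0% to 0.215% in lung and from 0.0090% to 0.0812% in blood, and miR-425-3p from 0% to 14.3% in lung and from 0% to 3.77% in blood, so that the tissues overlapped. miR-191b had 0 to 16 counts in a blood library and 0 to 9 in a lung library, too few to compare groups.

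The counts at a pair of loci listed as new miRNAs followed miR-425-5p in blood. Whether reads of miR-425-5p were also counted at these loci was not tested, so they are not shown to be separate miRNAs. They overlap each other, at chr8:113614807-113614909 and chr8:113614814-113614902 on the build rn4, whose annotation was not used here. In blood the first had 0.775 counts for each count of miR-425-5p, with an SD of the log2 ratio of 0.08 over 18 libraries, and the second had 0.779 with an SD of 0.08. In the 16 lung libraries the SD was 0.13 for the first and 0.68 for the second, and over all 18 it was 0.27 and 0.71. No row of the table followed miR-191a-5p in this way, by a limit of 0.2 on that SD.

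Since miR-191a-5p is the divisor of the RT-qPCR values, the 6 miRNAs that the study followed in blood at 2 weeks were also read relative to each member of the pair. Relative to miR-191a-5p, the 15 Gy libraries of 2 weeks minus the 0 Gy libraries of 1 week gave log2 differences of 1.87 for miR-142-5p (a leukocyte miRNA), 1.56 for miR-144-3p and 1.51 for miR-144-5p (both of red cells), 1.59 for miR-19a-3p (of the miR-17-92 cluster), −2.11 for miR-150-5p (a lymphocyte miRNA) and 1.06 for miR-21-5p. Relative to miR-425-5p they were 1.92, 1.61, 1.57, 1.64, −2.05 and 1.11 in the same order. The choice between the pair moved each by 0.06, because at 2 weeks the ratio of the pair differed by −0.06 between these groups. For 5 of the 6, all but miR-21-5p, the groups did not overlap relative to miR-191a-5p, with the exact permutation p at its smallest possible value of 0.1, where 18.1% of the other 288 miRNAs tested in blood did not overlap either. The study picked miR-142-5p, miR-144-3p, miR-144-5p and miR-19a-3p for their rise in these same libraries, so their separation here is no independent evidence. With the libraries in doubt exchanged, miR-150-5p gave −1.31 (exact permutation p = 0.5). With TMM scaling edgeR gave 1.85, 1.37, 1.46, 1.60, −2.70 and 0.83, with adjusted p from 0.218 to 0.488, and so none of the 6 passed, where 0.346% of the 289 miRNAs tested did.

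In blood, miR-191a-5p as a divisor shifted the median of all miRNAs more at the other weeks than at 2 weeks. Scaling the counts by miR-191a-5p in place of TMM moved the median log2 fold change over the 289 blood miRNAs to 0.63 from −0.04 at 3 weeks, to 0.53 from 0.09 at 4 weeks and to −0.29 from 0.03 at 1 week, but only to 0.10 from 0.05 at 2 weeks. Between the 0 Gy groups it moved the median to −0.69 from 0.01. The fold changes of miR-191a-5p in blood moved without the libraries in doubt, or at 4 weeks without replicate 3 of 15 Gy, as given above. The shifts were not computed without these libraries. In lung, scaling by miR-191a-5p moved the median over the 499 miRNAs to −0.90 from −0.18 at 4 weeks and to −0.50 from −0.03 over all weeks. Scaling by miR-191a-5p left the number of miRNAs past the threshold in blood at 1 at 1 week, 1 at 2 weeks and 3 over all weeks, while in lung at 4 weeks 0 passed by miR-191a-5p and 1 by TMM.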

How the data were processed

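The data are small RNA sequencing of 36 libraries. The authors trimmed the reads, aligned them with Bowtie against miRBase and used miRanalyzer to predict new loci. The submitters' notes name Trim Galore 0.2.5, Bowtie 1.1.1 and the build rn4. The authors deposited raw read counts per miRNA. Counts were fitted per tissue with edgeR 4.0.16 (R 4.3.3), with TMM scaling, filterByExpr (289 miRNAs kept in blood, 499 in lung, 576 jointly), quasi-likelihood F tests and Benjamini-Hochberg adjustment. Weeks 1 and 2 were set against 0 Gy at 1 week, weeks 3 and 4 against 0 Gy at 4 weeks. The SE is the log2 fold change over the root of F. Permutation tests were exact or used 100000 resamples (SciPy 1.17.1). DESeq2 1.42.0, other scalings and filters, a replicate block and each library left out were alternatives, and the code was tested on simulated data. Members, lists and named miRNAs were chosen with earlier results of these data known. Named are the pair, its locus, the reference list, the RT-qPCR targets, the 3 miRNAs most alike and loci whose counts follow a member. Of 458 known rat miRNAs, 414 matched the sequence table. Lung libraries under 0.1 of the median total count as of very low depth.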

Additional observations from a re-analysis of the deposited data

Results flagged for a closer look

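Dixon's rule was applied to the 6 libraries at 0 Gy of each tissue, over 10 sets of values, and chance flags about 1 set in 20. In lung, 0 Gy 4 week replicate 3 stood apart in the share of all counts, with 0.231% miR-191a-5p where the next lowest library had 0.688%, and with 0.00143% miR-425-5p where the next lowest had 0.00839%. After TMM scaling, with a factor of 0.463, it was not apart from the others.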

How the results depend on the processing

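Neither member's result from the fits across all miRNAs crossed the threshold of 0.05 under any alternative run, and signs of values near 0 turned. All values below are log2 differences unless named otherwise, "all weeks" is 15 Gy against 0 Gy, and the cause of each turn was not tested. With the blood libraries in doubt exchanged, miR-191a-5p gave −0.19 at 1 week and −0.31 over all weeks, and miR-425-5p −0.020 at 1 week. Without these libraries (chosen after seeing the data) miR-191a-5p gave −0.067 at 4 weeks and −0.23 over all weeks, and miR-425-5p −0.17 at 1 week. With no filter, blood miR-191a-5p gave 0.077 at 2 weeks, −0.066 at 4 weeks and −0.020 over all weeks, and miR-425-5p −0.0090 at 1 week. With RLE scaling, blood miR-425-5p gave −0.057 at 1 week and −0.0028 between the 0 Gy groups, miR-191a-5p −0.018 at 4 weeks and −0.050 over all weeks, and the tissue difference of miR-425-5p was −0.037. With DESeq2 these blood values were −0.059, −0.015, −0.018 and −0.050. With known rat miRNAs only, blood miR-191a-5p gave −0.011 over all weeks.

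With scaling by miR-191a-5p, blood miR-425-5p gave −0.13, 0.56 and 0.36 at 1, 3 and 4 weeks, 0.17 over all weeks and −0.61 between the 0 Gy groups, and lung miR-425-5p −0.18 and −0.40 at 3 and 4 weeks. With library totals, blood miR-191a-5p gave 1.11 at 2 weeks, blood miR-425-5p 0.96, 0.070 and 0.46 at 2, 3 and 4 weeks and 0.39 over all weeks, lung miR-191a-5p −0.36 between the 0 Gy groups, r of the pair 0.39 in blood and 0.15 in lung, and the SD of blood miR-425-5p was 0.70. With totals without miR-486-5p, miR-191a-5p gave 0.019 in blood at 2 weeks and −0.37 between the lung 0 Gy groups. Raw counts gave SDs of 0.69 for blood miR-425-5p and 2.38 for lung miR-191a-5p. Without the lung libraries of very low depth, miR-191a-5p gave −0.10 between the 0 Gy groups, r was 0.31, the SD of miR-425-5p was 0.46 and the lung ratio differed by −0.48. Without lung libraries under 500000 counts (chosen after seeing the data), miR-191a-5p gave −0.029 at 2 weeks and −0.042 between the 0 Gy groups, and the ratio −0.30. With 0.1 counts added the lung ratio differed by −0.79 (exact permutation p = 0.0506).

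Within a tissue, same-numbered libraries of different groups had a median r of 0.11 in blood (−0.43 to 0.56), against −0.07 for other numbers. In the lung libraries of ordinary depth it was 0.02 (−0.33 to 0.56), against −0.002. Whether blood and lung libraries of the same group and number share rats was not checked. The joint fit and the lung minus blood ratio took them as unpaired. The replicate block changed no call, with miR-191a-5p in blood at −0.10 at 4 weeks and −0.069 over all weeks, miR-425-5p in lung at 0.011 over all weeks, and the ratio at 0.05 in blood and −0.66 in lung.

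Leaving out each library in turn, blood miR-191a-5p ran from −0.15 to 0.040 at 2 weeks, −0.81 to 0.39 at 4 weeks and −0.26 to 0.083 over all weeks. Blood miR-425-5p ran from −0.21 to 0.24, −0.26 to 0.077 and −0.22 to 0.033 at 1, 3 and 4 weeks, and −0.16 to 0.24 between the 0 Gy groups. Lung miR-425-5p ran from −0.10 to 0.54 and −0.018 to 0.69 at 3 and 4 weeks, −0.23 to 0.13 over all weeks and −0.58 to 0.057 between the 0 Gy groups, where miR-191a-5p ran from −0.30 to 0.22. The tissue difference of miR-425-5p ran from −0.21 to 0.33, the ratio from −0.13 to 0.20 in blood, −0.83 to −0.52 in lung and 0.40 to 0.75 for lung minus blood, r from −0.21 to 0.083 in blood and −0.19 to 0.43 in lung, and the SD of lung miR-425-5p from 0.46 to 1.57. Depth limits miR-425-5p in lung, where ordinary libraries hold as few as 11 counts.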
